A study of Homo sapiens with 12 samples.

Results

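In SCC1, a cultured line from a squamous cell carcinoma of the head and neck (HNSCC), no messenger RNA of the vimentin gene VIM was counted in most cells. The cells described here are the exceptions, SCC1 cells in which at least 1 unique molecular identifier (UMI, a tag that marks 1 captured RNA molecule) of VIM was counted. They numbered 219 of 5270 SCC1 cells, or 4.16%, in a series of 23914 cells from 3 HNSCC lines. VIM counts alone chose them, so that every VIM value below is a description and no test. Of the 219 cells, 126 had exactly 1 VIM UMI and lie just inside the rule, 93 had 2 or more, and 5051 SCC1 cells with 0 VIM UMIs lie just outside it.

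The cells had been grown in DMEM and Ham's F12 medium with 10% fetal bovine serum. From 24 hours after seeding, cetuximab, an EGFR-blocking antibody (EGFR is the receptor for epidermal growth factor), was given each day for 5 days at 100 nM, and untreated cells received saline (PBS), in 2 replicates each. RNA of single cells had been captured in droplets with the 10x Genomics Chromium 3′ chemistry, version 2, with 57057402 to 91904880 UMIs in total per SCC1 sample. Each replicate is a library of 1 cell line, and the sources leave unclear whether the 2 replicates of a group were separate cultures, so that the errors and p-values here may cover only the spread between libraries.

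Vimentin is the intermediate filament of mesenchymal cells, while epithelial cells build theirs from keratins. Carcinoma cells that pass through epithelial-mesenchymal transition (EMT) gain vimentin, N-cadherin and matrix proteins and lose junction proteins such as E-cadherin, and many stop at intermediate states that keep both sets. In squamous carcinoma, such partial states have been described in cells at the edge of tumours. VIM lies on chromosome 10 (GRCh38, 17228241 to 17237593).

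VIM-positive cells were a larger share of the PBS samples than of the cetuximab samples. Their share was 4.12% in PBS replicate 1 (52 of 1263 cells, exact Clopper-Pearson 95% interval 3.09 to 5.36), 6.06% in PBS replicate 2 (101 of 1666, 4.96 to 7.32), 2.81% in cetuximab replicate 1 (27 of 961, 1.86 to 4.06) and 2.83% in cetuximab replicate 2 (39 of 1380, 2.02 to 3.84). The PBS replicates differed from each other by more than the cetuximab replicates did. Intervals cover counting error only. Cells with 2 or more VIM UMIs made up 1.98% (25 cells) and 2.64% (44 cells) of the PBS samples and 0.937% (9 cells) and 1.09% (15 cells) of the cetuximab samples.

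Deeper cells were VIM-positive more often. With the cells of each sample divided into 4 bins of like size by total UMIs, the shares over the 4 samples were 1.74%, 1.97%, 4.71% and 8.19% from the shallowest to the deepest. Each cell was therefore thinned to 15000 UMIs, which left out 48 and 26 shallower cells of the PBS samples and 23 and 33 of the cetuximab samples. VIM-positive cells then made up 2.06% and 2.87% of the PBS samples and 0.959% and 0.891% of the cetuximab samples. The mean share was 2.46% ± 0.572 (SD, n = 2) with PBS and 0.925% ± 0.0485 (SD, n = 2) with cetuximab. The difference of -1.54 percentage points is given as a description, since an exact permutation test of 2 samples against 2 cannot give a p under 0.333.

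As a measure of stray counts, genes that a squamous line should lack were counted in the same way. UMIs of PTPRC (the leukocyte antigen CD45), ALB (albumin) and HBB (a haemoglobin chain) were found in 0 SCC1 cells before thinning, which allows a share of up to 0.180% to 0.312% per sample. CD3E, a part of the T cell receptor complex, had UMIs in 1 cell of PBS replicate 2 and in 1 cell of cetuximab replicate 2. The VIM shares lay above these values in all 4 samples. A culture that lacks these genes releases no RNA of them. Their counts therefore cannot show how much RNA from outside the cells was captured, and the comparison does not decide this. Free VIM RNA released by the VIM-positive cells themselves is not measured by these genes, and its part in the cells with exactly 1 VIM UMI was not tested.

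VIM UMIs were very unevenly spread over the positive cells. The 126 cells with 1 UMI held 13.8% of the 912 VIM UMIs of the line, and the 77 cells with 2 to 9 UMIs held 242. The remaining 544 UMIs, or 59.6%, lay in 16 cells with 10 or more. Of these 16 cells, 4 were in PBS replicate 1, 10 in PBS replicate 2, 0 in cetuximab replicate 1 and 2 in cetuximab replicate 2. The 5 cells with most VIM, all in PBS replicate 2, had 63, 68, 81, 89 and 97 UMIs and held 43.6% of the line's VIM. The summed VIM level was 2.32 and 6.84 CPM (UMI counts scaled to 1000000 UMIs in all) in the PBS samples and 0.719 and 1.23 CPM in the cetuximab samples. Without the 16 cells it was 1.57, 1.90, 0.719 and 0.713 CPM, so that the distance between the PBS replicates rested on few cells.

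Per cell, the strongest VIM signals lay above the median cells of the other lines but below their highest cells. The 5 cells with most VIM had 568.8 to 1840 CPM. The median cell had 545 and 496 CPM in cetuximab-treated SCC6, 0 and 15.7 CPM in untreated SCC6 and 47.1 to 265 CPM in the SCC25 samples. The highest cell of each SCC6 or SCC25 sample had 4079 to 20877 CPM. The median SCC1 cell had 0 CPM in all 4 samples. In the plot of VIM against total UMIs, 5 points of PBS replicate 2 stand clear of all others.

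**Figure D1:**
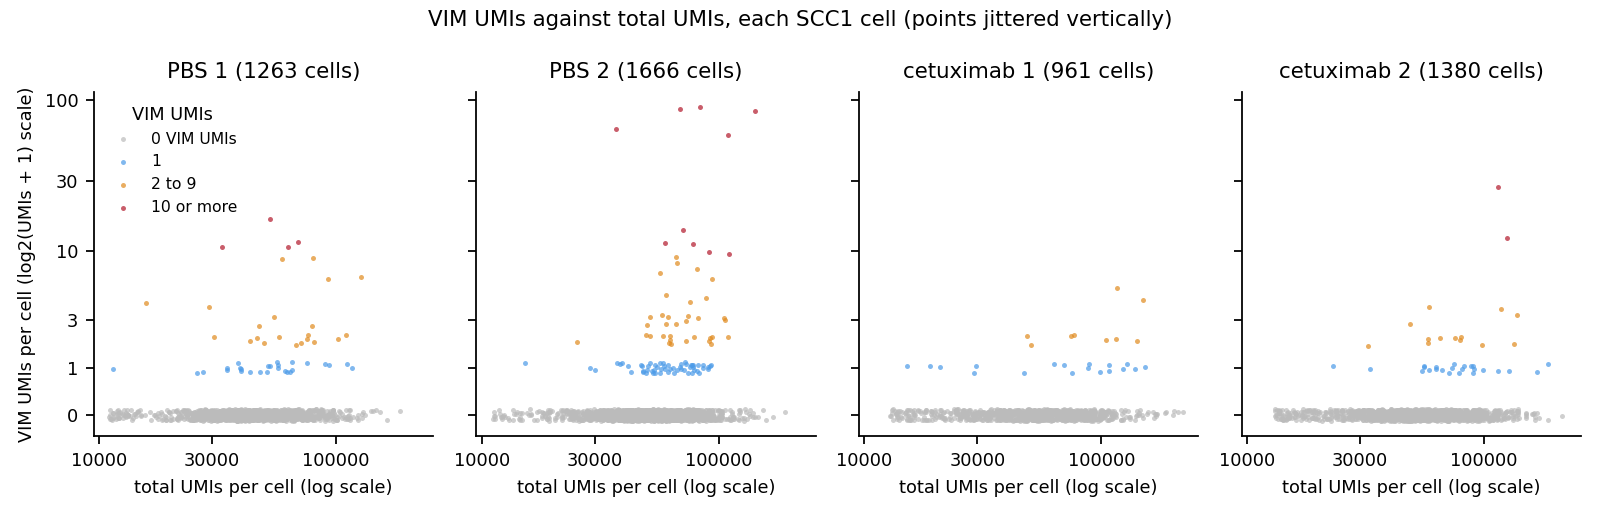
VIM UMIs per cell (vertical axis, log2(UMIs + 1) scale, jittered) against total UMIs per cell (horizontal axis, log scale) for each SCC1 cell, 1 panel per sample and colours by number of VIM UMIs. Most cells lie at 0, PBS replicate 2 holds 10 of the 16 cells with 10 or more VIM UMIs, and cetuximab replicate 1 holds 0.

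Whether the VIM-positive cells belonged to SCC1 was checked with 50 marker genes for each line, chosen on summed samples. On a scale where the median SCC1 cell is 100%, the SCC1 marker level had a median of 97.8% in cells with 1 VIM UMI, 96.6% in cells with 2 to 9 and 99.0% in cells with 10 or more, against 100.1% in VIM 0 cells. The 16 cells with most VIM ranged from 75.1% to 150.0%. Their SCC6 marker level was 17.5% to 23.4% of that of a median SCC6 cell and their SCC25 marker level 12.6% to 27.0% of that of a median SCC25 cell, with medians of 21.0% and 17.8% against 21.7% and 17.7% in VIM 0 cells. The VIM-positive cells carried the marker levels of SCC1 and not those of either other line. Only 6 SCC1 cells had a higher level of SCC6 or SCC25 markers than of SCC1 markers, and all 6 had 0 VIM UMIs.

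Cell barcodes were also compared between libraries. A barcode found in an SCC6 or SCC25 library occurred in 2 of the 126 cells with 1 VIM UMI, 3 of the 77 with 2 to 9, 1 of the 16 with 10 or more and 116 of the 5051 VIM 0 cells. A barcode found in another SCC1 library occurred in 0 of the 126 cells, 3 of the 77, 0 of the 16 and 31 of the 5051. Pairs of SCC1 libraries shared 1 to 4 barcodes.

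**Figure D2:**
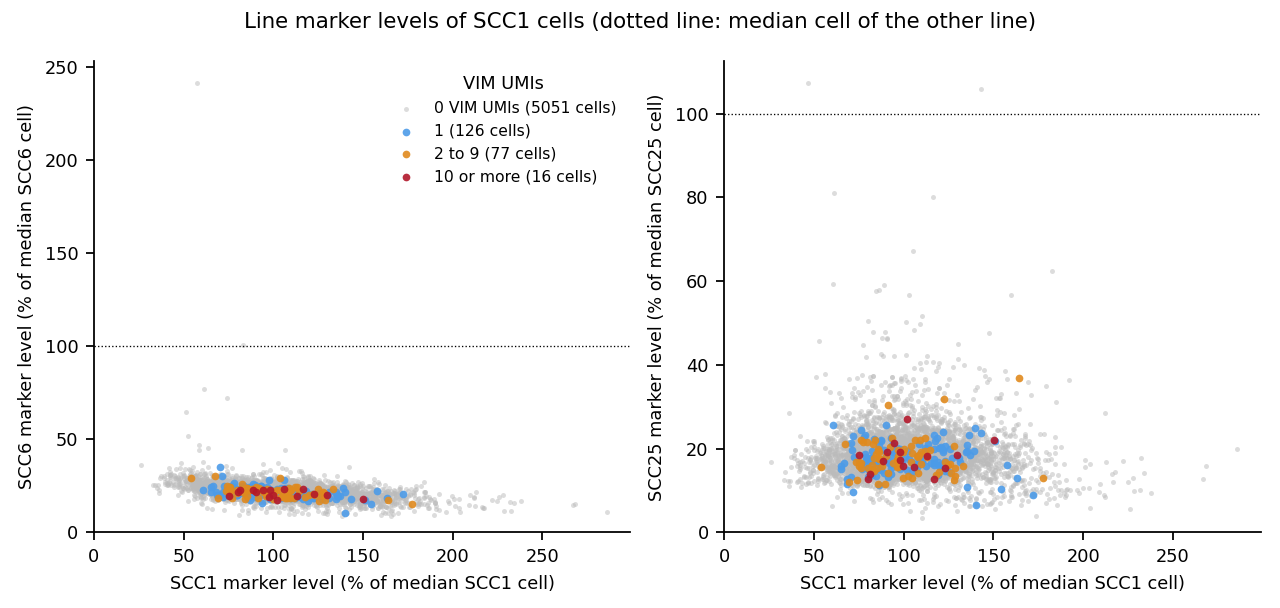
Level of SCC6 markers (left) and SCC25 markers (right) in each SCC1 cell, as a percentage of the median cell of that line, against its level of SCC1 markers as a percentage of the median SCC1 cell, with colours by number of VIM UMIs. VIM-positive cells lie among the VIM 0 cells, and the few cells near the dotted line at 100% have 0 VIM UMIs.

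The cells with most VIM were squamous by their keratins. KRT5, KRT14 and KRT17, the keratins of basal and activated squamous cells, were detected in 16 of the 16 cells with 10 or more VIM UMIs, as were SFN (14-3-3 sigma), PERP and DSP, both of desmosomes. TP63, the transcription factor of basal squamous cells, was detected in 8 of the 16 cells and in 60.0% of their matched VIM 0 cells. KRT6A, a keratin of wounded epithelium, was detected in 3 of the 16 cells and in 40.0% of the matched cells. The median levels of KRT17, KRT14 and KRT5 were 1376, 652 and 196.3 CPM, against 2696, 1011 and 313 CPM in the matched cells. PERP had a median of 334 CPM against 643 CPM, and SFN of 1040 CPM against 801 CPM.

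TFAP2A, the transcription factor that the study followed beside VIM, was detected in 219 of 219 VIM-positive cells and in 98.4% of VIM 0 cells. All VIM-positive cells were thus double-positive for TFAP2A and VIM. The summed level of TFAP2A was 124 ± 22.6 CPM (SD, n = 4) against 138 ± 4.90 CPM in cells with 2 or more VIM UMIs and their matched cells, a difference that did not pass the test (log2 fold change -0.16 ± 0.10 SE, FDR 0.524).

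Markers of other cell types were mostly at 0 in the cells with most VIM. Of 10 fibroblast markers, 6 were at 0 in the 16 cells with most VIM (COL3A1, DCN, PDGFRA, PDGFRB, THY1 and POSTN). All 6 were also at 0 in the matched VIM 0 cells, so that these zeros do not set the 16 cells apart. LUM was detected in 1 of the 16 cells. FAP was detected in 62.5% of them and 45.0% of the matched cells, COL1A1 in 18.75% and 17.5%, and COL1A2 in 12.5% and 33.75%. The summed level of the fibroblast markers had a median of 16.0 CPM (range 0 to 43.8), against 16.6 CPM in VIM 0 cells. All 8 endothelial markers were at 0. Of 10 immune and blood cell markers, 8 were at 0, PTPRC and TYROBP included and CD68 and CD14 not, and the summed level had a median of 26.8 CPM (range 0 to 54.1), against 13.8 CPM in VIM 0 cells.

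To describe the other genes, each VIM-positive cell was set against 5 VIM 0 cells of the same sample with the nearest total of UMIs. The match was close. Median UMIs were 56807, 66050, 87718 and 78608 in the VIM-positive cells of PBS replicates 1 and 2 and cetuximab replicates 1 and 2, and 56800.0, 65806, 87575 and 78455 in their matched cells. Over all VIM 0 cells the medians were only 45530.0 to 54307.5. The mitochondrial share of UMIs had medians of 2.29% to 2.69% in the VIM-positive and 2.24% to 3.00% in the matched cells. Counts were summed per sample for both kinds of cells, VIM was taken out, and the sums were fitted across all genes with edgeR's quasi-likelihood F-test, with the sample as a term and Benjamini-Hochberg adjustment (FDR). A gene is called here at an FDR under 0.05.

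Between VIM-positive and matched cells, 283 of 11967 genes passed the test (2.36%), 161 higher (1.35%) and 122 lower (1.02%). For cells with 2 or more VIM UMIs it was 239 of 10575 genes (2.26%), 125 higher (1.18%) and 114 lower (1.08%). For cells with exactly 1 VIM UMI it was 17 of 11227 genes (0.151%), 6 higher (0.0534%) and 11 lower (0.098%), with 1150 genes at an unadjusted p under 0.05. The first of these comparisons contains the cells of the other two. The counts depended on single libraries. For cells with 2 or more VIM UMIs, 104 genes were called once PBS replicate 2 was left out and 138 once PBS replicate 1 was. For all VIM-positive cells, leaving out PBS replicate 1, cetuximab replicate 2 or PBS replicate 2 gave 79, 120 and 167 genes. Leaving out the deepest 5% of cells of each sample, where doublets would be most frequent (no doublet caller was run), gave 150 genes at 2 or more VIM UMIs. Without the 16 cells of 10 or more VIM UMIs, 115 genes were called among cells with 2 to 9, and all 115 were among the 239 with the same direction.

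**Figure D3:**
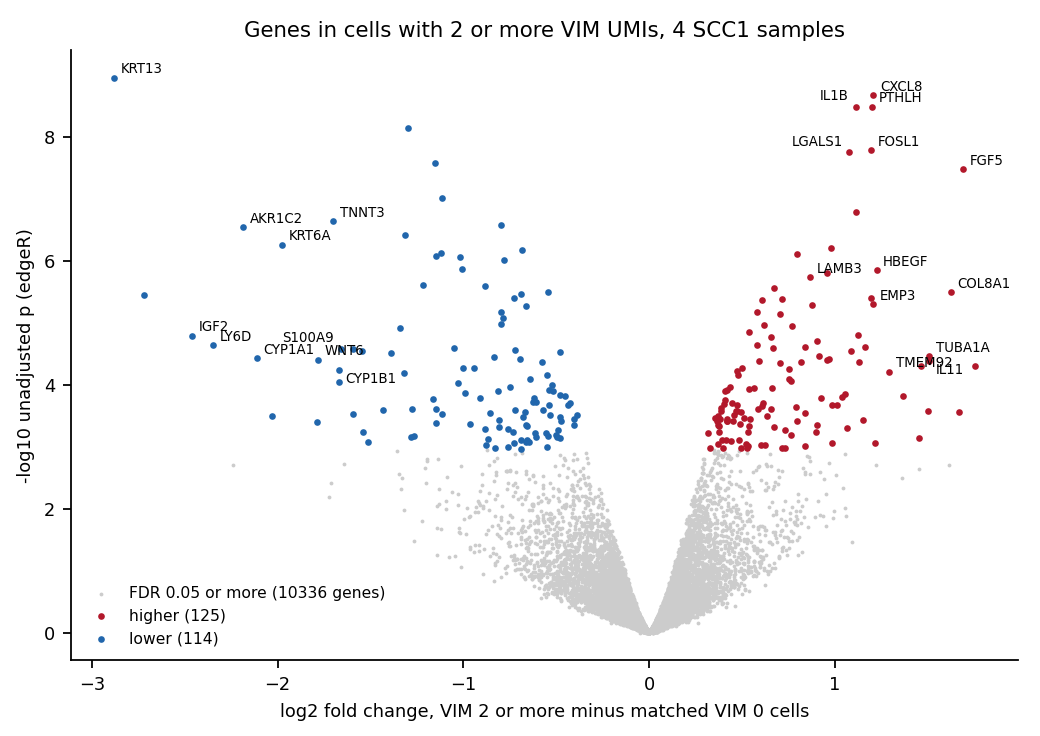
Unadjusted p of the edgeR test on a -log10 scale against log2 fold change for 10575 genes, cells with 2 or more VIM UMIs against matched VIM 0 cells, summed in 4 SCC1 samples. Red points are the 125 genes called higher and blue points the 114 called lower at an FDR under 0.05, with labels for the genes chosen by rule and 3 others (LGALS1, LAMB3 and IL1B).

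Of the 10 higher genes chosen by rule at 2 or more VIM UMIs, FGF5, HBEGF, PTHLH, IL11 and CXCL8 encode secreted or membrane-bound signals, as do IGF2 and WNT6 among the 10 lower ones. FGF5, a fibroblast growth factor, stood at 78.8 and 37.5 CPM in the PBS samples and 203 and 44.5 CPM in the cetuximab samples, against 29.3, 15.9, 40.3 and 13.1 CPM in the matched cells. It was higher in the VIM-positive cells of all 4 samples, while the values overlapped across samples (log2 fold change 1.69 ± 0.16 SE, FDR 3.87e-05). FGF5 was detected in 77.4% of these cells and 45.2% of the matched cells.

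HBEGF, a membrane-bound ligand of EGFR, was at 30.4 and 18.9 CPM in the PBS samples and 52.5 and 26.5 CPM in the cetuximab samples, against 10.3, 8.82, 28.8 and 9.70 CPM in the matched cells. It was higher in each of the 4 pairs (log2 fold change 1.22 ± 0.16 SE, FDR 6.00e-04). PTHLH, the parathyroid hormone-related protein of squamous tumours, reached 119 and 104 CPM in the PBS samples and 94.7 and 64.8 CPM in the cetuximab samples, against 57.6, 41.5, 42.9 and 27.2 CPM in the matched cells. Every VIM-positive value of PTHLH lay above every matched value (log2 fold change 1.20 ± 0.09 SE, FDR 8.63e-06). IL11, a cytokine of the interleukin 6 family, was at 19.9 and 9.75 CPM in the PBS samples and 24.0 and 9.37 CPM in the cetuximab samples, against 4.98, 4.10, 4.95 and 6.57 CPM in the matched cells. It too was higher in 4 of 4 samples, with the smallest distance in cetuximab replicate 2 (log2 fold change 1.51 ± 0.26 SE, FDR 0.00568). In 1 of the 4 samples, however, 1 cell held 100% of the IL11 UMIs of the VIM-positive cells. Without PBS replicate 1, IL11 did not pass (FDR 0.0507).

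Several inflammatory cytokines and chemokines, known as NF-kB targets, were higher. Of 16 tested genes of that list, 6 passed (CXCL1, CXCL2, CXCL3, CXCL8, IL1A and IL1B) and 0 were called lower. CXCL3 did not pass with DESeq2 (FDR 0.0881). The list median was 0.47 on the log2 scale, against -0.000183 over all genes tested. Of all genes tested, 1.18% were called higher and 1.08% lower. CXCL8, the neutrophil chemokine interleukin 8, was at 276 and 184 CPM in the PBS samples and 791 and 73.4 CPM in the cetuximab samples, against 111, 95.3, 352 and 26.5 CPM in the matched cells. It differed widely between samples but was higher within each (log2 fold change 1.21 ± 0.09 SE, FDR 8.63e-06). IL1B, interleukin 1 beta, was at 468 and 442 CPM in the PBS samples and 427 and 120.2 CPM in the cetuximab samples, against 209.8, 218, 176 and 62.6 CPM in the matched cells, again higher in 4 of 4 samples (log2 fold change 1.11 ± 0.09 SE, FDR 8.63e-06). For CXCL8, 1 cell held 20.9% of the UMIs of the 93 cells, and for CXCL1 1 cell held 17.6%.

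LAMB3, a laminin chain of the epithelial basement membrane, was at 68.9 and 76.8 CPM in the PBS samples and 70.7 and 109 CPM in the cetuximab samples, against 37.6, 34.6, 54.7 and 59.2 CPM in the matched cells. It was higher in 4 of 4 samples (log2 fold change 0.87 ± 0.11 SE, FDR 7.23e-04). Of 18 tested TGF-beta target genes, 3 were higher (LTBP2, TGFBI and THBS1) and 2 lower (ID1 and ID2, inhibitors of helix-loop-helix factors), with a list median of 0.21. Over all genes tested, 1.18% were called higher and 1.08% lower. ID1 and ID2 fell in every sample (-0.48, FDR 0.00477 and -1.30, FDR 1.50e-05 for the log2 fold changes). COL8A1, a short-chain collagen, was at 55.2 and 44.2 CPM in the PBS samples and 31.9 and 54.6 CPM in the cetuximab samples, against 15.4, 21.7, 15.1 and 7.36 CPM in the matched cells. All 4 VIM-positive sums lay above all 4 matched sums (log2 fold change 1.62 ± 0.22 SE, FDR 0.00107).

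Most genes of the mesenchymal list were not called. For comparison, 1.18% of all genes tested were called higher and 1.08% lower. Of 29 genes of the list, 16 passed the filter on low counts and 3 were higher (ACTA2, CDH2 and LGALS1), 0 lower, with a median of 0.22. LGALS1, galectin 1, was the most abundant of them, at 2436 and 2864 CPM in the PBS samples and 2446 and 2103 CPM in the cetuximab samples, against 1395, 1499, 959 and 907 CPM in the matched cells. The 2 sets of values did not overlap (log2 fold change 1.08 ± 0.10 SE, FDR 2.67e-05). CDH2, N-cadherin, was low but higher in 4 of 4 samples (log2 fold change 1.01 ± 0.21 SE, FDR 0.0174). ACTA2, smooth muscle actin, was called, with a lower value in cetuximab replicate 1 (log2 fold change 0.98 ± 0.24 SE, FDR 0.0419), but did not pass with DESeq2 (FDR 0.390). FN1, fibronectin, was at 652 and 246 CPM in the PBS samples and 1109.9 and 731 CPM in the cetuximab samples, against 401, 218, 1122 and 559 CPM in the matched cells, and did not pass (log2 fold change 0.32 ± 0.10 SE, FDR 0.133). Of 10 EMT transcription factors only 2 passed the filter and 0 were called by edgeR, with 0 at an unadjusted p under 0.05 and 0 called by DESeq2. SNAI2 was at 69.0 ± 6.18 CPM (SD, n = 4) against 70.2 ± 12.7 CPM (log2 fold change -0.01 ± 0.10 SE, FDR 0.984), and ZEB1 had too few counts to test.

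EGFR and MAPK response genes went both ways. Of 20 tested, 3 were higher (DUSP6, FOSL1 and HBEGF) and 2 lower (DUSP5 and FOS, the latter not with DESeq2, FDR 0.513), with a median of 0.01. The shares called over all genes tested were 1.18% higher and 1.08% lower. FOSL1, the AP-1 subunit FRA1, was at 83.8 and 86.2 CPM in the PBS samples and 46.8 and 50.7 CPM in the cetuximab samples, against 41.6, 33.1, 21.9 and 22.1 CPM in the matched cells. It was higher by a like amount in each sample, between the lowest 0.99 and the highest 1.35 on the log2 scale (log2 fold change 1.20 ± 0.11 SE, FDR 2.67e-05). AXL, a receptor tyrosine kinase, was the only gene called of 8 tested growth factor receptors and TFAP2 factors (log2 fold change 0.49 ± 0.11 SE, FDR 0.026). EGFR itself was at 56.8 ± 5.44 CPM (SD, n = 4) against 76.7 ± 8.33 CPM (log2 fold change -0.41 ± 0.11 SE, FDR 0.0805), which did not pass.

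EMP3, a membrane protein, TUBA1A, an alpha tubulin, and TMEM92, a membrane protein of little-known function, completed the 10 higher genes chosen by rule. EMP3 was higher in 4 of 4 samples (log2 fold change 1.20 ± 0.17 SE, FDR 0.00136). TUBA1A was at 21.1 and 17.1 CPM in the PBS samples and 21.7 and 66.4 CPM in the cetuximab samples, against 6.10, 6.86, 20.8 and 12.5 CPM in the matched cells. It was nearly level in cetuximab replicate 1, and 1 cell held 20.6% of its UMIs (log2 fold change 1.51 ± 0.25 SE, FDR 0.0053). Without the deepest 5% of cells, TUBA1A was no longer called (FDR 0.378). TMEM92 was called (log2 fold change 1.29 ± 0.23 SE, FDR 0.00721), but not without PBS replicate 2 (FDR 0.260) or without the 16 cells of 10 or more VIM UMIs (FDR 0.162).

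**Figure D4:**
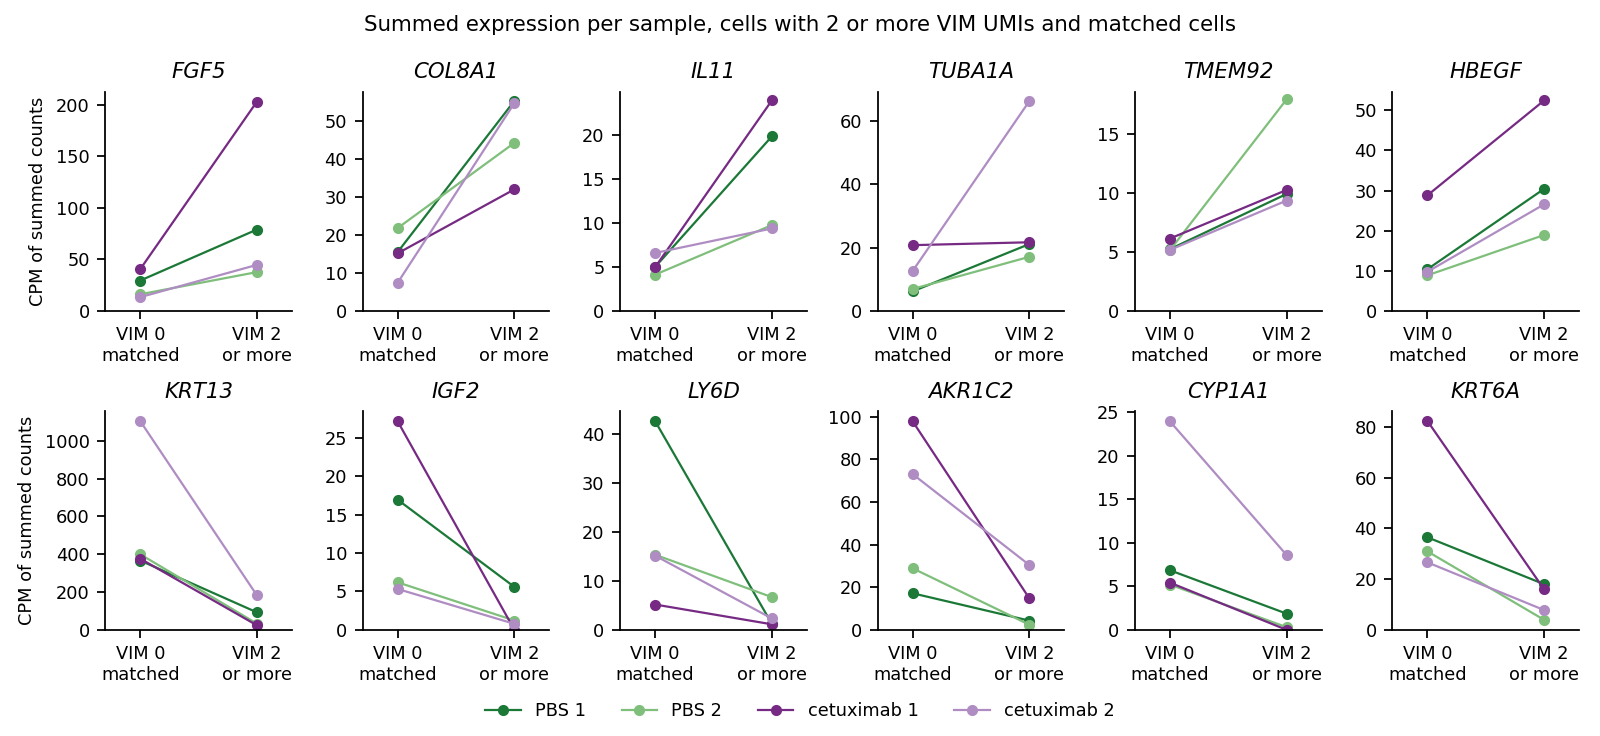
Summed expression in CPM (vertical axis, linear, from 0) of the 6 genes with the largest rise and the 6 with the largest fall chosen by rule, in matched VIM 0 cells (left of each panel) and cells with 2 or more VIM UMIs (right), with 1 line per sample. Each line rises for the 6 genes of the upper row and falls for the 6 genes of the lower row, with TUBA1A nearly level in cetuximab replicate 1.

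Some squamous differentiation genes were lower in cells with 2 or more VIM UMIs. KRT13, the keratin of suprabasal cells of the oral mucosa, had the largest fall among the genes chosen by rule. It was at 92.5 and 32.6 CPM in the PBS samples and 24.0 and 182 CPM in the cetuximab samples, against 367, 399.6, 376 and 1104 CPM in the matched cells. All VIM-positive values lay below all matched values (log2 fold change -2.88 ± 0.21 SE, FDR 8.63e-06). KRT13 was still detected in 73.1% of these cells and 89.7% of the matched cells. LY6D, a surface protein of stratified epithelium, was at 1.24 and 6.70 CPM in the PBS samples and 1.14 and 2.34 CPM in the cetuximab samples, against 42.7, 15.4, 5.19 and 15.2 CPM in the matched cells. It was lower in each sample (log2 fold change -2.35 ± 0.38 SE, FDR 0.00432), but did not pass with DESeq2 (FDR 0.0649). S100A9, a calcium-binding protein of differentiating and inflamed epithelium, was lower as well (log2 fold change -1.66 ± 0.27 SE, FDR 0.00451). These were the 3 lower genes of 5 tested of 23 in the list, whose median was -1.66, and 0 were higher. Over all genes tested, 1.08% were called lower and 1.18% higher.

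Of 8 basal and wound keratins, 6 were tested, 5 were lower (KRT5, KRT14, KRT15, KRT17 and KRT6A) and 0 higher, with a median of -0.60. The shares over all genes tested were 1.08% called lower and 1.18% called higher. KRT5 was at 246 and 284 CPM in the PBS samples and 168 and 423 CPM in the cetuximab samples, against 392, 514, 314 and 512 CPM in the matched cells (log2 fold change -0.66 ± 0.09 SE, FDR 0.0014). KRT17 was at 2661 and 1579.8 CPM in the PBS samples and 6052 and 7293 CPM in the cetuximab samples, against 3641, 3051, 8796 and 7557 CPM in the matched cells (log2 fold change -0.49 ± 0.11 SE, FDR 0.0299). Both were lower within each of the 4 samples, KRT17 only slightly in cetuximab replicate 2. KRT6A was at 18.0 and 3.96 CPM in the PBS samples and 16.0 and 7.81 CPM in the cetuximab samples, against 36.5, 30.9, 82.3 and 26.6 CPM in the matched cells (log2 fold change -1.98 ± 0.23 SE, FDR 3.64e-04). Among 4 keratins of simple epithelium KRT19 was lower (log2 fold change -0.55 ± 0.13 SE, FDR 0.0465), whereas KRT8 and KRT18 did not pass (-0.19, FDR 0.644 and -0.05, FDR 0.919 for the log2 fold changes).

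Most junction genes did not pass the test. Of 24 tested, 3 were lower (CLDN4, ELF3 and PERP) and 0 higher, with a median of -0.24. Among all genes tested, 1.08% were called lower and 1.18% higher. CLDN4, a claudin of tight junctions, was at 33.5 and 36.3 CPM in the PBS samples and 43.3 and 42.9 CPM in the cetuximab samples, against 67.2, 69.3, 96.2 and 117 CPM in the matched cells. The values did not overlap (log2 fold change -1.11 ± 0.11 SE, FDR 1.01e-04). ELF3, an epithelial transcription factor, was lower in 4 of 4 samples (log2 fold change -1.15 ± 0.11 SE, FDR 3.46e-05). CDH1, E-cadherin, was at 19.4 ± 6.71 CPM (SD, n = 4) against 26.6 ± 7.69 CPM, and did not pass (log2 fold change -0.46 ± 0.15 SE, FDR 0.163). EPCAM, an epithelial adhesion molecule, had a log2 fold change of 0.14 (FDR 0.429).

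Growth factors, enzymes and a troponin made up the other lower genes chosen by rule. IGF2, an insulin-like growth factor, was at 5.58 and 1.22 CPM in the PBS samples and 0 and 0.781 CPM in the cetuximab samples, against 16.9, 6.19, 27.1 and 5.32 CPM in the matched cells. It was lower in each sample and at 0 in cetuximab replicate 1 (log2 fold change -2.46 ± 0.39 SE, FDR 0.00327). WNT6, a secreted WNT ligand, fell from a mean of 45.1 to 13.9 CPM (log2 fold change -1.78 ± 0.31 SE, FDR 0.00552), but did not pass with DESeq2 (FDR 0.136). CYP1A1 and CYP1B1, cytochrome P450 enzymes induced through the aryl hydrocarbon receptor, were both lower (log2 fold change -2.11 ± 0.36 SE, FDR 0.00552, and log2 fold change -1.67 ± 0.30 SE, FDR 0.00697), but neither was called without the 16 cells of 10 or more VIM UMIs (FDR 0.0627 and 0.096) or without the deepest 5% of cells (FDR 0.341 and 0.202). TNNT3, a troponin of skeletal muscle, was lower in 4 of 4 samples (log2 fold change -1.70 ± 0.19 SE, FDR 2.04e-04). AKR1C2, an aldo-keto reductase of steroid metabolism, was at 4.34 and 2.44 CPM in the PBS samples and 14.8 and 30.4 CPM in the cetuximab samples, against 17.2, 28.9, 97.9 and 73.1 CPM in the matched cells. It was lower in each sample (log2 fold change -2.19 ± 0.24 SE, FDR 2.17e-04), and 1 cell held 46.3% of its UMIs in the 93 cells. In cells with exactly 1 VIM UMI, where 1 cell held 38.1% of its UMIs, the gene did not pass (log2 fold change 0.73 ± 0.41 SE, FDR 0.584), and the direct test of the difference between these cells and those with 2 or more did not pass either (-2.92 ± 0.69 SE on the log2 scale, edgeR FDR 0.309).

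In further lists few genes were called, beside 1.18% called higher and 1.08% called lower over all genes tested. Of 14 tested genes of the integrated stress response, 3 were lower (ASNS, SLC7A11 and TRIB3), with a median of -0.33. With DESeq2, ASNS (FDR 0.101) and TRIB3 (FDR 0.0639) did not pass. BNIP3 was the only one called of 14 hypoxia and glycolysis genes (log2 fold change 0.42 ± 0.09 SE, FDR 0.0231). None of 26 interferon response genes, 40 proliferation genes or 13 mitochondrially encoded genes was called by edgeR at 2 or more VIM UMIs. At an unadjusted p under 0.05 there were 4, 5 and 1 of them, beside 1533 of all 10575 genes tested, and DESeq2 called 0 of them. Among the 40 proliferation genes, 31 had a fitted value above 0 at 2 or more VIM UMIs (median 0.12) and 40 of 40 at exactly 1 VIM UMI (median 0.34, with 0 called by edgeR or DESeq2 and 21 at an unadjusted p under 0.05). At exactly 1 VIM UMI, 1150 of all 11227 genes tested were at an unadjusted p under 0.05. Over all VIM-positive cells, TYMS, thymidylate synthase, was the only proliferation gene called (log2 fold change 0.41 ± 0.08 SE, FDR 0.0166).

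In cells with exactly 1 VIM UMI, the called genes were few. Among the higher were LGALS1 (log2 fold change 0.71 ± 0.09 SE, FDR 0.00627), COL8A1 (log2 fold change 1.02 ± 0.14 SE, FDR 0.00798), PTHLH (log2 fold change 0.58 ± 0.10 SE, FDR 0.0446), LCP1, an actin-bundling plastin (1.29, FDR 0.00493), and TUBA1B, an alpha tubulin (0.49, FDR 0.023). Lower were KRT13 (log2 fold change -1.46 ± 0.22 SE, FDR 0.0135), IGF2, CLDN4, CLIC3, NUPR1, CYP1A1, UPK2, RHOBTB3, MEST, ALPP and S100P. NUPR1, a stress-induced nuclear protein, had the smallest FDR among them (log2 fold change -1.01 ± 0.09 SE, FDR 3.95e-04). Of the 17 genes, DESeq2 gave no adjusted p for 7 and did not call KRT13 (FDR 0.0699). FGF5 did not pass in these cells (log2 fold change 0.65, FDR 0.141). CXCL8 (0.43, FDR 0.525) and IL1B (0.42, FDR 0.188) did not pass either. The 17 called genes depended on single libraries, since leaving out PBS replicate 1 gave 5 called genes, PBS replicate 2 gave 27, cetuximab replicate 1 gave 99 and cetuximab replicate 2 gave 9.

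Among all VIM-positive cells, the genes chosen by rule that the 2 or more comparison did not name were LCP1, CXCL1, RGS3, LGALS1 and CTHRC1 among the higher and S100P, ALPP, UPK2, IGFL2-AS1 and NUPR1 among the lower ones. S100P, a calcium-binding protein, had the largest fall, at 0.961 and 1.91 CPM in the PBS samples and 3.07 and 1.22 CPM in the cetuximab samples, against 5.72, 10.8, 4.07 and 55.4 CPM in the matched cells. It was low in each of the 4 VIM-positive sums (log2 fold change -3.30 ± 0.42 SE, FDR 0.00179), but did not pass with DESeq2 (FDR 0.106). CTHRC1, a secreted collagen-associated protein, was at 21.8 and 30.4 CPM in the PBS samples and 28.1 and 11.9 CPM in the cetuximab samples, against 15.9, 13.8, 14.8 and 6.99 CPM in the matched cells (log2 fold change 0.88 ± 0.12 SE, FDR 0.00414). RGS3 regulates G protein signalling and was higher in 4 of 4 samples (log2 fold change 0.95 ± 0.14 SE, FDR 0.00474).

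The difference between cells with 2 or more and cells with exactly 1 VIM UMI was tested directly, and 0 of 10595 genes passed with edgeR (0%), with 501 at an unadjusted p under 0.05, while DESeq2 called 1. A gene called at 2 or more VIM UMIs and not at exactly 1 is therefore not shown to differ between them. By number of VIM UMIs, mean FGF5 per cell had a log2 ratio to matched cells of 0.76 at exactly 1, 1.41 at 2 to 9 and 3.04 at 10 or more. KRT13 had ratios of -1.42, -2.70 and -3.93, and AKR1C2 of 0.59, -1.90 and -2.94. These ratios were over cells and carry no test.

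**Figure D5:**
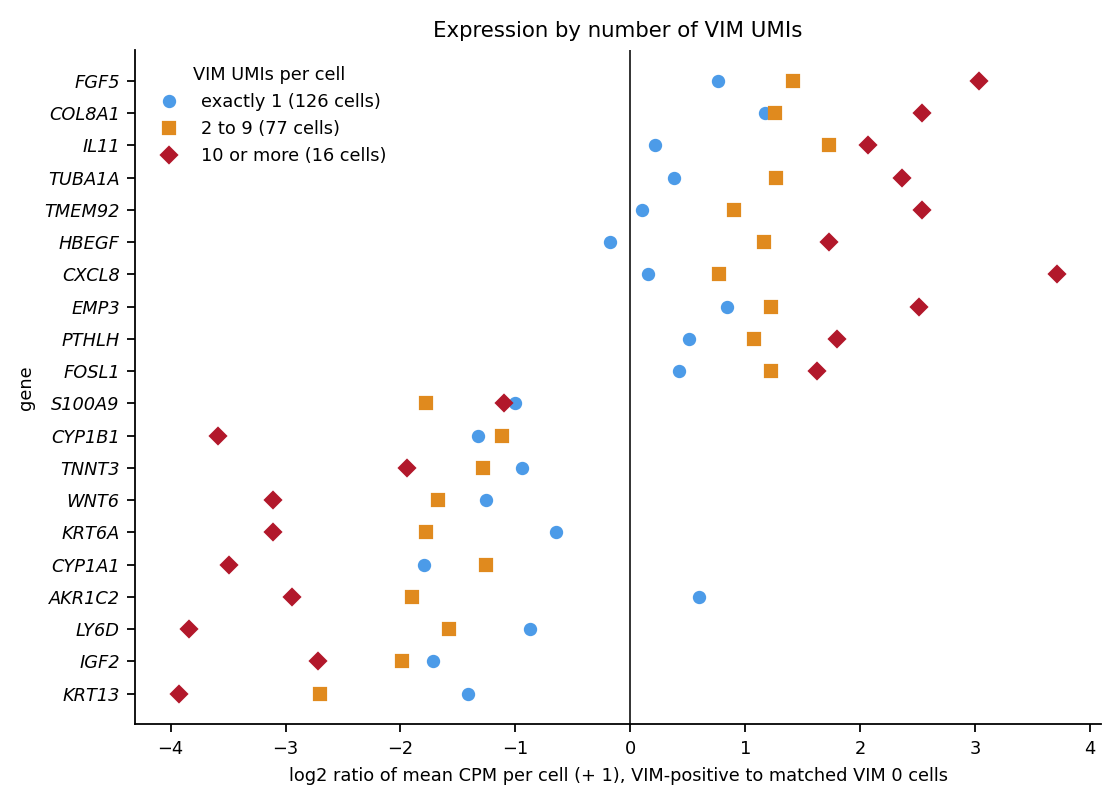
Log2 ratio of mean CPM per cell (plus 1) in VIM-positive cells to that in their matched VIM 0 cells for the 20 genes chosen by rule at 2 or more VIM UMIs, separately for cells with exactly 1 (circles), 2 to 9 (squares) and 10 or more VIM UMIs (diamonds). The 10 higher genes have their largest ratio at 10 or more VIM UMIs, and of the 10 lower genes all but S100A9 have their lowest ratio there.

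In the 16 cells with 10 or more VIM UMIs, the genes with the largest ratios among those detected in at least 80% of them included CXCL8, CXCL1, FGF5, SERPINB2, COL8A1, EMP3, IL1B, ETS1, LAMB3, IL32, SGK1, ANXA6, PTHLH and NEDD4L. Mean CXCL8 was 423 CPM against 31.3 CPM in the matched cells. Its median was 91.4 CPM against 14.5 CPM, and its highest cell had 2786 CPM. Mean CXCL1 was 323 CPM against 25.3 CPM, with a median of 199 CPM against 0 CPM. SERPINB2 had a median of 65.9 CPM against 34.1 CPM, with 9 of 16 cells above the matched median. Its highest cell had 3371 CPM. At 2 or more VIM UMIs, SERPINB2 (edgeR FDR 0.955) and NEDD4L (edgeR FDR 0.333) did not pass. Mean FGF5 was 113 CPM against 12.9 CPM. ETS1, a transcription factor, was detected in 16 of these 16 cells and in 35.0% of their matched cells. Since 10 of the 16 cells came from 1 library, these values describe few cells.

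Whether the VIM-positive cells differed in the same way with PBS and with cetuximab was tested with an interaction term over all VIM-positive cells. With edgeR, 1 of 11967 genes passed (0.00836%), with 791 at an unadjusted p under 0.05, and DESeq2 called 2. The gene was C15orf48, which encodes a small mitochondrial protein. In PBS replicates 1 and 2 it was at 122.4 and 61.4 CPM in VIM-positive cells against 35.0 and 12.2 CPM in matched cells, and in cetuximab replicates 1 and 2 at 1004 and 50.8 CPM against 923 and 47.0 CPM. Single cells held 55.2% and 69.1% of its UMIs in the VIM-positive cells of the PBS samples.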

How the data were processed

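Single-cell RNA of 3 HNSCC lines had been deposited as 1 table of raw UMI counts per line. The submitters' processing notes and the methods name Cell Ranger (version not given in the sources used here), with which the authors had filtered reads and aligned them, and the build GRCh38. The deposited counts were whole numbers and showed no normalisation. How reads of near-identical genes were assigned was not given, so that the tubulins TUBA1A and TUBA1B, AKR1C2 and the closely related keratins are uncertain. The tables had 33538 lines for 33514 symbols, and counts of a repeated symbol were added. All deposited cells were used.

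Cells were assigned to samples by the deposited cell table, and groups were taken from the labels. The members and gene lists were chosen with earlier results of these data known. Counts of VIM-positive cells and of 5 matched VIM 0 cells each (same sample, nearest total UMIs without VIM, each used once) were summed per sample. The 8 sums were fitted in edgeR 4.0.16 (R 4.3.3) with TMM factors and filterByExpr, 1 term for each sample and 1 for VIM status, by the quasi-likelihood F-test, two-sided, with Benjamini-Hochberg adjustment. Cell-level values used Python 3.11.15 with scipy 1.17.1. Genes were named by rule, as the 10 higher and 10 lower genes of largest fold change with FDR under 0.05, the same direction in all 4 samples and a mean of at least 10 CPM, and for cells with 10 or more VIM UMIs as the 15 genes of largest ratio with at least 20 CPM, detected in at least 80% of them. Members of the gene lists were also named. Results for 2 genes are not reported here, and the list counts and medians leave them out. Line markers needed at least 50 CPM in each sample of their line. The comparison of 2 or more with exactly 1 VIM UMI was added after seeing the data.

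In simulated counts, the fit for all VIM-positive cells (11967 genes) recovered 92.9% of changes of 1 on the log2 scale, with 4.95% of calls false, and that for 2 or more VIM UMIs (10575 genes) 78.9%, with 5.98% false. The simulation gave every gene the same fixed dispersion and, apart from the set changes, the same proportion in every sample. It held no cells with a large part of a gene's UMIs, as the real sums did. These rates may therefore not hold for the real sums. Alternatives were DESeq2 1.42.0, other scaling, filters, blocks and matching, thinning, and leaving out cells or samples.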

Additional observations from a re-analysis of the deposited data

Results flagged for a closer look

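Among the 20 genes named at 2 or more VIM UMIs and the 20 named at 1 or more, the difference per sample stood apart in 1 of the 4 samples for 2 results, where chance marks about 1 in 20. The log2 difference of TMEM92 was 1.63 in PBS replicate 2 and 0.659, 0.75 and 0.811 in the others. That of IGF2 was -4.81 in cetuximab replicate 1, where it had 0 UMIs in 9 cells, and -1.83, -1.70 and -1.45 in the others.

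For C15orf48, the VIM-positive difference itself differed between treatments, by -1.97 on the log2 scale (cetuximab minus PBS, edgeR FDR 0.000197, all VIM-positive cells). The difference per sample was 1.78 and 2.24 with PBS and 0.12 and 0.11 with cetuximab. In cells with 2 or more VIM UMIs it was 0.86 and 0.65 with PBS and 1.42 and 0.25 with cetuximab. Single cells held 55.2% and 69.1% of the UMIs in the VIM-positive cells of the PBS samples, and their part in the result was not tested.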

How the results depend on the processing

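Genes called for all VIM-positive cells, for 2 or more VIM UMIs and for exactly 1 were 283, 239 and 17. They were 474, 543 and 296 with no filter on low counts, 1817, 1076 and 617 against all VIM 0 cells without matching, and 615, 383 and 151 with 10 matched cells. Thinning to 15000 UMIs gave 124 and 114 for the first and second, and leaving out cells of 10 or more VIM UMIs gave 188 and 115. Without the deepest 5% of cells, the second was 150 and the third 30. DESeq2 gave 27 for the third. Leaving out 1 sample at a time gave 79 to 298, 104 to 223 and 5 to 99. A replicate block with treatment in place of the sample term gave 103, 114 and 4, and a treatment term with no replicate block 0, 5 and 0 (625, 635 and 377 at an unadjusted p under 0.05). The difference between treatments had 1 gene, 32 with no filter and 2 with DESeq2. The difference between 2 or more and exactly 1 had 0 genes, 46 with no filter, 1 with DESeq2 and 0 to 1 without 1 sample.

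Samples of PBS and cetuximab with the same replicate number deviated together (Pearson r = 0.705 across 7721 genes, which are not independent replicates), but the labels do not say what the number marks. With the replicate block the difference in the thinned share was again -1.54 percentage points, and leaving out 1 sample gave -1.94 to -1.13. Without thinning it was -2.27. Leaving out the 6 cells richer in SCC6 or SCC25 markers changed no count. All 6 had 0 VIM UMIs, and 0 of them were among the matched cells.

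The 40 named results kept their direction under every alternative run. Of 631 such refits, 564 stayed on the same side of the threshold and 67 no longer passed it. These genes had been chosen on the same data for an FDR under 0.05 and the same direction in all 4 samples. A reversal was thus unlikely from the start. The refits without the cells richer in SCC6 or SCC25 markers repeated the main fit and are counted among the 564. At 2 or more VIM UMIs, FOSL1 and AKR1C2 passed in all 16 refits, while CXCL8 (FDR 0.321), S100A9 (FDR 0.373), CYP1A1 (FDR 0.166) and LY6D did not pass with the replicate block. Over all VIM-positive cells, TUBA1A, EMP3, CXCL1, CTHRC1 and IGFL2-AS1 did not pass with that block. Of the 239 genes at 2 or more VIM UMIs, 78 were not called by DESeq2. The 9 and 15 cells with 2 or more VIM UMIs in the cetuximab samples limit what can be detected there.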
